A study of Homo sapiens with 6 samples.

Results

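Wnt pathway transcripts were examined in SK-MES-1 cells, an established human lung squamous carcinoma line, by RNA sequencing. Of 10 listed symbols (LBH, DKK1, AXIN2, WNT5A, WNT7B, FZD2, FZD7, LRP6, TCF7L2 and CTNNB1), 9 had an identically named row among the 15761 gene symbols of the table, and LRP6 was not analysed here. The symbols were chosen by pathway role and with their fold changes between the exosome and control libraries in view, so the values of the 9 genes in that contrast are given as a description, with no test. The 2 groups were 3 exosome libraries, from wild-type SK-MES-1 cells kept for 72 h in complete medium with exosomes at 20 µg/ml, and 3 control libraries, from the same line kept in parallel without exosomes. The exosomes, small membrane vesicles that cells release, were taken from fibroblasts of lungs with idiopathic pulmonary fibrosis, a scarring disease, and the series title names senescent fibroblasts and exosomal MMP1. The number of fibroblast donors is not stated in the labels, and neither group received vesicles of another origin. Nothing states that samples of a group came from separate cultures, and p-values then cover only the spread between these samples, which may be technical.

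Wnt proteins are secreted ligands that bind Frizzled (FZD) receptors together with the co-receptors LRP5 and LRP6. In the canonical branch this stops a destruction complex built on axin and APC from degrading beta-catenin, the product of CTNNB1, which then enters the nucleus and acts with TCF/LEF factors on target genes. Other branches run through Frizzled and ROR receptors to the cytoskeleton without beta-catenin, and in the lung the pathway is known for its part in airway and alveolar development and repair.

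LBH, a transcription cofactor known as a target of Wnt and beta-catenin signalling from work on mammary cells, stood 4.11-fold lower in the exosome libraries, and the Wnt inhibitor DKK1 and CTNNB1 itself stood 1.47-fold and 1.40-fold lower. The ligand WNT7B stood 1.54-fold higher. The receptors FZD2 and FZD7 and the nuclear factor TCF7L2 lay within 1.08-fold between the groups after scaling by TMM factors. Once GC content and transcript length were allowed for, LBH, DKK1 and CTNNB1 stood 4.72-fold, 1.47-fold and 1.22-fold lower and WNT7B 1.19-fold higher. FZD2 was then lower, at a log2 fold change of -0.44. The feedback gene AXIN2 and the ligand WNT5A had 1 to 7 reads a library. Among the other genes of the pathway, calls were divided between both directions.

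Library totals were 13038688 to 13334508 counts with exosomes and 11346639 to 12924251 in control, so that 1 CPM (a count over the library total, times 1e+06) stood for 11.3 to 13.3 reads. Of the controls, library 3 stood apart, with a chi-square per gene of 16.2 and 12.1 against libraries 1 and 2, which had 2.31 between them. Exosome library 3 likewise had 9.71 and 7.41 against exosome libraries 1 and 2, which had 3.18 between them. Epithelial markers were high, with EPCAM, CDH1, KRT8, KRT18 and KRT19 adding up to 3660 to 3980 CPM with exosomes and 4250 to 4470 CPM in control. Markers of squamous carcinoma were nearly absent: 5 of 7 had a row, only TP63 and SOX2 had reads in every library, and the list summed to 6.22 to 9.87 CPM with exosomes and 5.65 to 6.52 CPM in control. KRT5, KRT6A and KRT14 averaged at most 0.302 CPM in either group. NKX2-1, a factor of lung adenocarcinoma and alveolar cells, averaged 71.6 ± 10.3 CPM with exosomes and 37.5 ± 5.70 CPM in control (SD, n = 3 each). The near absence of squamous markers, with NKX2-1 present, goes against the squamous label. In the annotation, exons of NKX2-1 overlap those of AL132857.1 on the same strand and of an antisense gene, NKX2-1-AS1. Its counts may therefore include reads of either. The alveolar list (4 of 5 markers with a row, SFTPC at 0.108 CPM or less) summed to 69.2 to 92.9 CPM with exosomes and 33.6 to 44.3 CPM in control. Most of it was NKX2-1, as NAPSA averaged 5.77 CPM with exosomes and 1.995 CPM in control, and SFTPB 3.36 and 0.494 CPM. Fibroblast markers, of the cells that made the exosomes, summed to 12.9 to 13.2 CPM with exosomes and 14.0 to 17.8 CPM in control, nearly all of it PDGFRB and ACTA2, while PDGFRA, COL3A1 and THY1 averaged at most 0.278 CPM. Leukocyte markers summed to 190 to 199 CPM with exosomes and 140 to 171 CPM in control, nearly all of it CD68, and PTPRC lay at 0.170 CPM or less. Endothelial markers summed to 10.5 to 12.0 CPM with exosomes and 9.08 to 11.0 CPM in control. The part of these markers in the results was not tested. Over all genes, fold changes rose with the GC content of the transcript, with a median log2 fold change of -0.39 in the lowest of 10 GC bins and 0.49 in the highest. Each gene is therefore also given with the GC and length trend of each library removed, called corrected below. Removing it left bin medians of -0.036 to 0.028.

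Among the ligands, WNT7B (ENSG00000188064, chromosome 22, 45920362 to 45977129 on GRCh38, minus strand), which signals through beta-catenin in the developing mouse lung, had 121.8, 108.7 and 111.5 CPM in exosome libraries 1 to 3, against 71.3, 70.6 and 68.2 CPM in control libraries 1 to 3. Every exosome library lay above every control library. Its fitted log2 fold change was 0.62 ± 0.081 (SE). Its longest transcript has 63.0% GC, in the highest GC bin, and the corrected log2 fold change was 0.26 ± 0.067. WNT5A (ENSG00000114251, chromosome 3, 55465715 to 55490539, minus strand), the ligand best known for the beta-catenin-independent branch, had 3, 6 and 3 reads with exosomes and 5, 5 and 4 reads in control. The groups overlapped, and it did not pass the filter on low counts. On the length-scaled FPKM scale WNT7B made up 59.7 ± 2.95% of the summed level of the 15 WNT genes with a row in the exosome libraries and 55.2 ± 1.26% in the control libraries (SD, n = 3 each). WNT9A followed with 35.5 ± 2.60% with exosomes and 36.8 ± 1.86% in control. WNT5A made up 0.128 ± 0.0605% with exosomes and 0.239 ± 0.0425% in control.

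**Figure D1:**
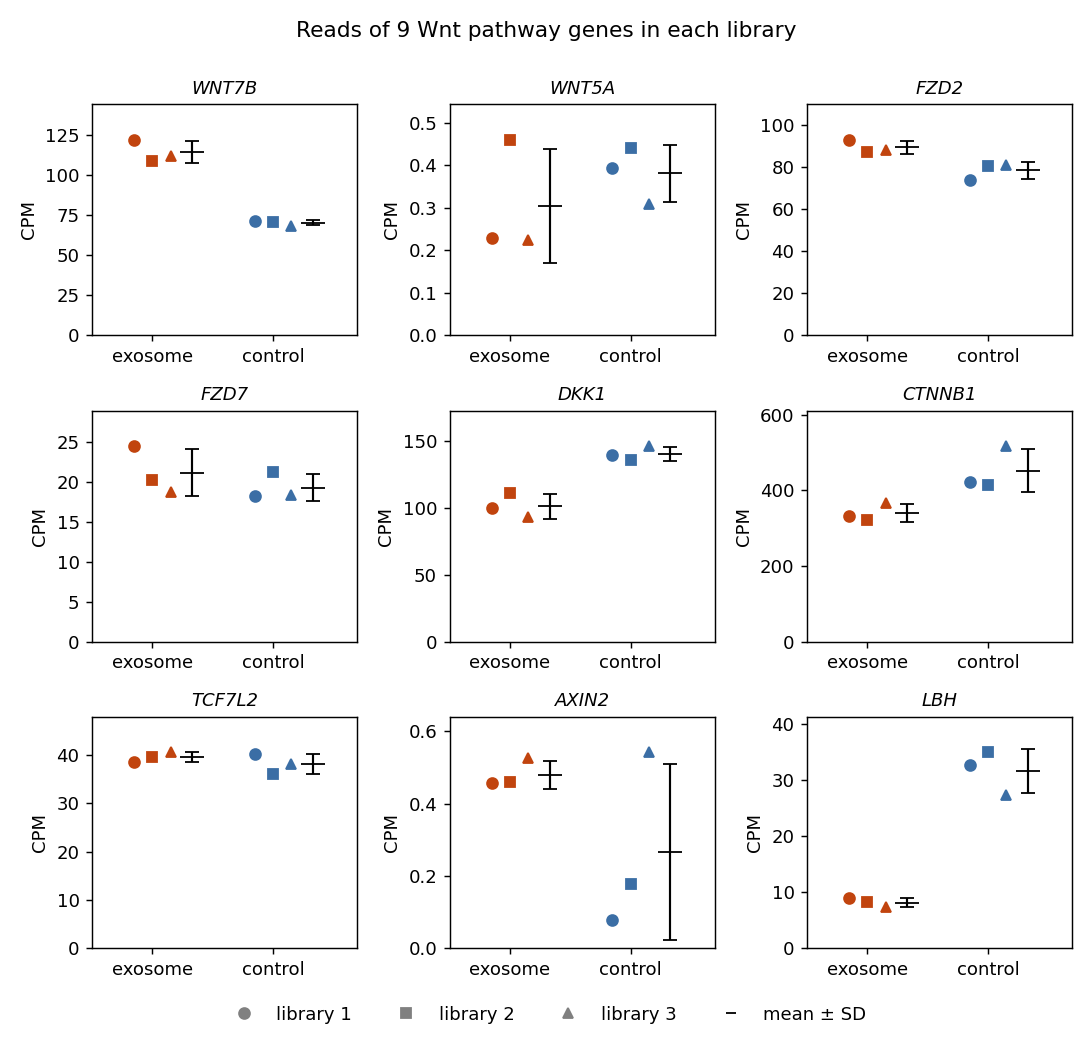
CPM (vertical axes from 0) of the 9 genes in each of 3 exosome and 3 control libraries, with the mean and SD beside the points. LBH, DKK1 and CTNNB1 lie lower in all exosome libraries and WNT7B and FZD2 higher (FZD2 not after the GC and length correction), while the points of WNT5A, FZD7, TCF7L2 and AXIN2 overlap between groups.

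Of the 2 Frizzled receptors, FZD2 (ENSG00000180340, chromosome 17, 44557459 to 44559570, plus strand) had 93.1, 87.3 and 88.2 CPM with exosomes, against 74.0, 80.7 and 80.9 CPM in control. The groups did not overlap on this scale, but the log2 fold change after TMM scaling was 0.11 ± 0.080. FZD2 has the highest transcript GC content of the 9 genes, 64.9%, and its corrected log2 fold change was -0.44 ± 0.088, so its direction turned with the correction. FZD7 (ENSG00000155760, chromosome 2, 202034587 to 202038445, plus strand) had 24.5, 20.2 and 18.8 CPM with exosomes and 18.2, 21.2 and 18.3 CPM in control. Exosome library 1 was the highest and the other exosome libraries lay among the controls. Its log2 fold change was 0.056 ± 0.13, or -0.085 ± 0.11 corrected, and -0.057 without exosome library 1. Per length and without the correction, under which FZD2 turned lower, FZD2 made up 59.4 ± 1.01% of the summed FPKM of 9 FZD genes with exosomes and 52.6 ± 0.840% in control. FZD6 came second, with 13.9 ± 1.22% with exosomes and 20.4 ± 0.792% in control, and FZD7 made up 7.66 ± 0.916% with exosomes and 7.05 ± 0.615% in control.

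**Figure D2:**
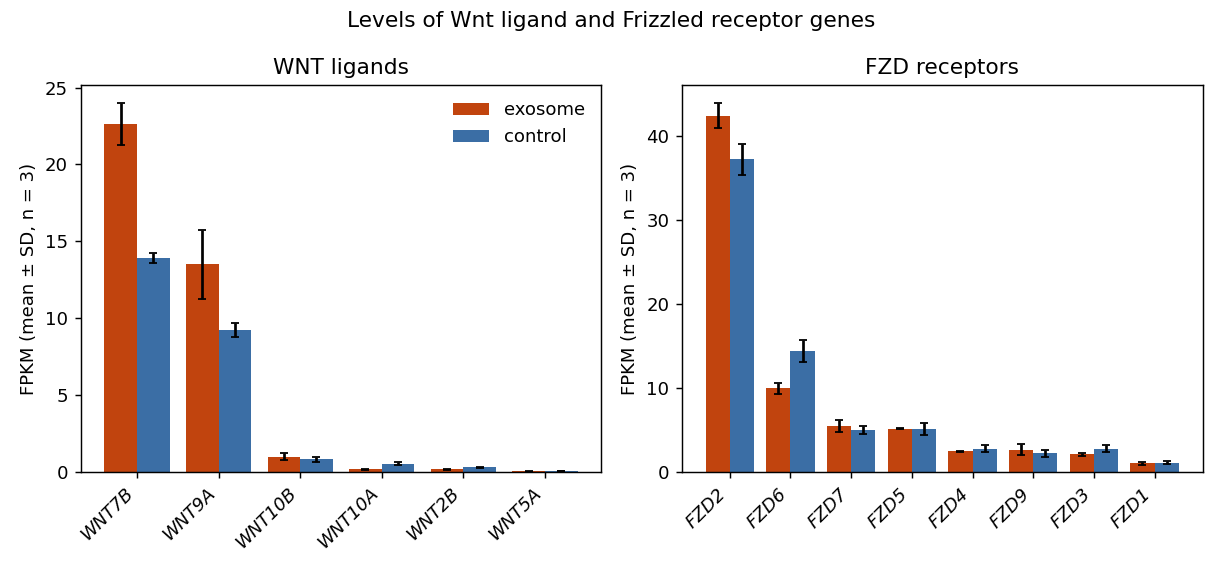
FPKM (mean and SD, n = 3 libraries a group, vertical axes from 0) of the WNT and FZD genes that passed the filter on low counts, with WNT5A added. WNT7B and WNT9A exceed the other WNT genes shown in both groups, and FZD2 exceeds the other FZD genes shown.

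DKK1 (ENSG00000107984, chromosome 10, 52314296 to 52318042, plus strand), a secreted protein that blocks Wnt signalling at LRP5 and LRP6 and is itself a target of beta-catenin, had 99.6, 111.1 and 92.8 CPM with exosomes, against 139.3, 135.5 and 146.1 CPM in control. All exosome libraries lay below all control libraries. The log2 fold change was -0.56 ± 0.080 and the corrected value -0.56 ± 0.067, and it lay between -0.62 and -0.51 when single libraries were left out. An antisense gene, PRKG1-AS1, overlaps a DKK1 exon, and no source here says whether counting used strand, so reads of the pair cannot be told apart. DKK1 carried 99.8 ± 0.0807% of the summed FPKM of DKK1 and DKK3 with exosomes and 99.6 ± 0.268% in control.

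In the canonical relay, CTNNB1 (ENSG00000168036, chromosome 3, 41194741 to 41260096, plus strand), which encodes beta-catenin, a protein also bound to cadherins at the cell surface, had 331.9, 322.0 and 366.9 CPM with exosomes, against 423.5, 414.9 and 517.6 CPM in control. The groups did not overlap, and control library 3 was the highest. The log2 fold change was -0.49 ± 0.087, or -0.38 without control library 3. With 43.5% GC, the same as DKK1, its corrected value was nearer to 0, at -0.29 ± 0.068, while that of DKK1 barely moved. The correction also uses transcript length, which was 4888 bases for CTNNB1 and 1790 bases for DKK1. Transcript levels do not show the stability of beta-catenin protein, on which its signalling depends. TCF7L2 (ENSG00000148737, chromosome 10, 112950250 to 113167678, plus strand), a TCF/LEF factor that binds DNA with beta-catenin, had 38.7, 39.7 and 40.6 CPM with exosomes and 40.3, 36.1 and 38.2 CPM in control. Its groups overlapped, with a log2 fold change of -0.029 ± 0.096 that changed sign with scaling by library totals (0.053), without control library 1 (0.027) and with the correction (0.059 ± 0.082). TCF7L2 made up 60.6 ± 2.36% of the summed FPKM of TCF7, TCF7L1 and TCF7L2 with exosomes and 66.1 ± 0.885% in control. An antisense gene, AL158212.2, overlaps a TCF7L2 exon.

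AXIN2 (ENSG00000168646, chromosome 17, 65528563 to 65561647, minus strand), a scaffold of the destruction complex that beta-catenin induces as negative feedback in many tissues, had 6, 6 and 7 reads with exosomes and 1, 2 and 7 reads in control. Control library 3 had as many reads as the highest exosome library, so the groups overlapped, and the gene did not pass the filter on low counts. A further protein-coding gene of the annotation, AC004805.1, overlaps its exons on the same strand.

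LBH (ENSG00000213626, chromosome 2, 30231369 to 30323730, plus strand) had 117, 106 and 98 reads with exosomes (8.89, 8.13 and 7.35 CPM), against 415, 396 and 352 reads in control (32.6, 34.9 and 27.2 CPM). The groups lay far apart, with the highest exosome library well under the lowest control library. The log2 fold change was -2.04 ± 0.14, the 7th lowest of 12449 genes tested, and between -2.13 and -1.95 when single libraries were left out. With 53.3% GC, LBH belonged to a GC bin whose median log2 fold change was 0.16, and the corrected value was -2.24 ± 0.12, the 9th lowest. Whether fewer cells express LBH or each cell holds less of its RNA cannot be told apart in bulk samples.

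The promoters of LBH and DKK1 are shown because both genes are known as Wnt targets and both stood lower with exosomes. The set of RefSeq promoters used here (GRCh38.p14) held the 250 bases before and 50 bases after at least 1 start for 5 of the 9 genes. Capitals mark each match on either strand to any of 4 short motifs, and no match overlaps another. The letters searched were CTTTGA, a form of the core of TCF/LEF sites. Other forms of that core, such as CTTTGT, which both printed windows hold, were neither searched nor marked. For TEAD factors they were GGAATG, as in many of their known sites. For AP-1 factors the search used TGAGTCA, their classical element. The TATA box was searched as TATAAA in the same way. The regions are chr2:30231284-30231583 for LBH, with 71.3% GC, and chr10:52314031-52314330 for DKK1, with 63.7% GC, both on the plus strand. The starts are those of the promoter set and differ from the gene starts given above. For LBH, the gene start at 30231369 lies inside the window, upstream of the start used there.
LBH: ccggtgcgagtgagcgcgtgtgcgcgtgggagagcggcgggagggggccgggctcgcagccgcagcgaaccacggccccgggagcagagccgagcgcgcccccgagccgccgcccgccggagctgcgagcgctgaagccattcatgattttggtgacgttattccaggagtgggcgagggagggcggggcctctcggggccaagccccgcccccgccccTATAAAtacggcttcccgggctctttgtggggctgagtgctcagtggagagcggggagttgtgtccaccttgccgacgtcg
DKK1: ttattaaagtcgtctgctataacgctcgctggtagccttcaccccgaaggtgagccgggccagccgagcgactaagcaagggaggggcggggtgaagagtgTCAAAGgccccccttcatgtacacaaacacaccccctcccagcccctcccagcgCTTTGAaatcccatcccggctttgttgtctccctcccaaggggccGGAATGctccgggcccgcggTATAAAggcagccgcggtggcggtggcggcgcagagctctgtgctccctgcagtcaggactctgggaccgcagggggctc
The DKK1 window held the TCF/LEF letters with their first base 95 bases before the start and, on the other strand, 149 bases before it. It also held the TEAD letters 50 bases and the TATA box 30 bases before the start. The LBH window held the TATA box 31 bases before the start and none of the other letters searched. Of 35116 RefSeq promoters of the same length, 12.9% held the TCF/LEF letters, 14.0% the TEAD letters, 4.95% the AP-1 letters and 11.5% the TATA box. The windows of CTNNB1, TCF7L2 and WNT5A held none of these letters, which says nothing of sites elsewhere.

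Of the 9 genes, 7 passed the filter on low counts, and 4 of these lay past edgeR's threshold (1 higher, 3 lower). Of all 12449 genes tested 51.7% lay past it, 25.6% higher and 26.1% lower, and 1.29% were past it and lower by at least 2-fold, as was LBH alone of the 7. These were 3190 higher and 3244 lower genes, or 3811 and 2495 with scaling by library totals. Corrected, 5 did (1 higher, 4 lower, with FZD2 as the addition), where 35.4% of all genes did, 18.2% higher and 17.2% lower. CPM values did not overlap between groups in 5 of the 7, against 59.5% of all genes tested. As the list was made with these results known, nothing is read from the counts. Without control library 3, the log2 fold changes were -2.13 for LBH, -0.52 for DKK1, -0.38 for CTNNB1 and 0.61 for WNT7B. Without exosome library 3 they were -1.98, -0.51, -0.56 and 0.63 in the same order. Per length, the order of the 9 genes with exosomes was DKK1 (56.5 ± 5.16 FPKM), CTNNB1 (43.3 ± 3.00), FZD2 (42.4 ± 1.48), WNT7B (22.6 ± 1.37), TCF7L2 (9.15 ± 0.222), FZD7 (5.47 ± 0.769), LBH (2.16 ± 0.205), AXIN2 (0.104 ± 0.00837) and WNT5A (0.0479 ± 0.0213; SD, n = 3 for each). In that order, CTNNB1 and FZD2 were the neighbours whose libraries overlapped. In control the order was DKK1 (78.4 ± 2.98 FPKM), CTNNB1 (57.5 ± 7.25), FZD2 (37.2 ± 1.88), WNT7B (13.9 ± 0.325), TCF7L2 (8.82 ± 0.485), LBH (8.42 ± 1.05), FZD7 (4.98 ± 0.435), WNT5A (0.0600 ± 0.0105) and AXIN2 (0.0573 ± 0.0527). There the libraries of TCF7L2 and LBH overlapped, as did those of WNT5A and AXIN2. LBH thus lay above FZD7 in control and below it with exosomes.

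**Figure D3:**
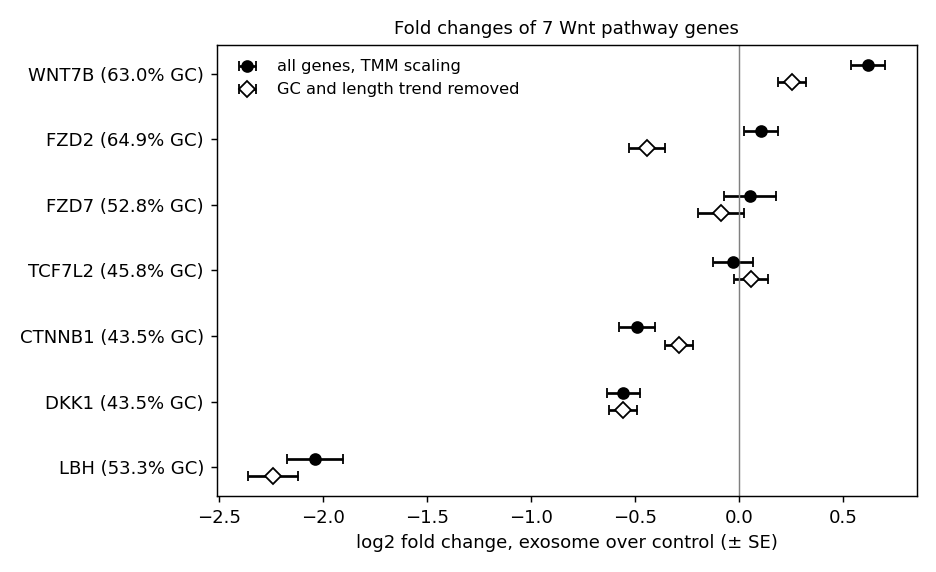
Log2 fold changes (exosome over control, with SE) of the 7 genes that passed the filter, after TMM scaling (filled circles) and with the GC and length trend also removed (open diamonds). Transcript GC content stands beside each name. LBH and DKK1 stay low in both, WNT7B and CTNNB1 move towards 0, and FZD2 has 0.11 with TMM scaling alone and -0.44 corrected.

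The other genes of the pathway were taken from lists by role, 155 symbols of which 134 had a row and 107 were tested. In edgeR's quasi-likelihood test, 31 rose and 36 fell, which is 62.6% against the 51.7% of all genes tested. Their median log2 fold change was 0.016, against -0.004 for all genes. Corrected, 16 were higher and 27 lower (40.2%, against 35.4% of all genes), with a median of -0.026 against -0.003. The same direction was called both ways for 14 higher and 21 lower genes. Genes that rose had a median transcript GC content of 58.1%, and those that fell 43.8%.

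Of 7 tested genes of Wnt ligands and their secretion, 1 rose and 2 fell. The share called was 42.9%, against 51.7% of all genes tested, and 14.3% corrected, against 35.4%. WNT9A rose (53.6 ± 8.86 CPM with exosomes and 36.7 ± 1.84 CPM in control, SD, n = 3 each here and below; log2 fold change 0.47 ± 0.11, adjusted p = 0.000975), which ended with the correction (0.18, adjusted p = 0.116). WNT2B fell (2.15 ± 0.465 CPM with exosomes and 3.77 ± 0.487 CPM in control; -0.89 ± 0.26, adjusted p = 0.00701). It no longer passed with the correction (-0.52, adjusted p = 0.117) and without exosome library 2 (adjusted p = 0.0517). WNT10A, named here after its values were seen, lay below the mean of 1 CPM asked of named genes. It had 4, 6 and 7 reads with exosomes (0.430 ± 0.114 CPM) and 18, 18 and 14 reads in control (1.36 ± 0.256 CPM). It was called lower with and without the correction (-1.72, adjusted p = 0.00316; corrected -2.23, adjusted p = 0.000517), from these few reads. WLS, which carries Wnt proteins to the cell surface, had 65.5 ± 4.20 CPM with exosomes and 64.2 ± 2.72 CPM in control (-0.051, adjusted p = 0.652), a difference whose sign turned with scaling by library totals.

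Of 11 tested receptors and co-receptors, 2 rose and 4 fell (corrected 1 and 3). The share called was 54.5%, against 51.7% of all genes tested, and 36.4% corrected, against 35.4%. LGR4, an R-spondin receptor, fell (127.5 ± 2.24 CPM with exosomes and 174.6 ± 14.5 CPM in control; log2 fold change -0.54, adjusted p = 1.00e-05; corrected -0.28). ROR1, a Wnt receptor of the beta-catenin-independent branch, fell as well (38.98 ± 2.09 CPM with exosomes and 56.4 ± 3.97 CPM in control; -0.61, adjusted p = 1.85e-05; corrected -0.39). FZD6 fell (39.04 ± 2.67 CPM with exosomes and 56.7 ± 5.22 CPM in control; -0.62, adjusted p = 2.26e-05; corrected -0.33). LRP5, the co-receptor with the highest FPKM of the list, rose (254.4 ± 11.4 CPM with exosomes and 190.3 ± 4.95 CPM in control; 0.34, adjusted p = 0.000639), but at 62.8% GC its corrected value was 0.018 (adjusted p = 0.841). Among 4 tested inhibitors other than DKK1, KREMEN2, a partner of DKK1 in blocking LRP6, was called higher (3.64 ± 0.959 CPM with exosomes and 1.96 ± 0.730 CPM in control; 0.82, adjusted p = 0.0303). Its groups overlapped, and the call ended with the correction (0.19, adjusted p = 0.649), with DESeq2 (adjusted p = 0.0652) and without exosome library 1 or 3 or control library 3 (adjusted p = 0.123, 0.108 and 0.136). None of these 4 was called lower by edgeR (0 also at an unadjusted p under 0.05) or by DESeq2 (0). Their share called was 25.0%, against 51.7% of all genes tested. ZNRF3, a ubiquitin ligase that removes Frizzled receptors, had 36.8 ± 2.53 CPM with exosomes and 31.8 ± 2.36 CPM in control (0.13, adjusted p = 0.300).

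The cytoplasmic relay and destruction complex had 21 tested genes, of which 11 rose and 8 fell, with a median GC content of 60.3% among those that rose and 42.3% among those that fell. Corrected, 4 were higher and 1 lower. The share called was 90.5% as counted, against 51.7% of all genes tested, but 23.8% corrected, against 35.4% of all genes. The relay protein gene DVL2 rose (94.03 ± 8.88 CPM with exosomes and 52.9 ± 4.62 CPM in control; log2 fold change 0.75, adjusted p = 1.74e-06; corrected 0.38, adjusted p = 0.00021). The casein kinase gene CSNK1E rose too (54.1 ± 5.42 CPM with exosomes and 28.3 ± 4.72 CPM in control; 0.85, adjusted p = 5.71e-06; corrected 0.51, adjusted p = 4.00e-04), with exons shared with the annotated read-through gene TPTEP2-CSNK1E. APC, the tumour suppressor of the destruction complex, fell (87.5 ± 8.19 CPM with exosomes and 126.3 ± 0.945 CPM in control; -0.61, adjusted p = 5.31e-06), but not past the threshold after correction (-0.14, adjusted p = 0.101).

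Of 18 nuclear factors, 8 rose and 0 fell in edgeR's test (1 lower at an unadjusted p under 0.05, and 0 lower by DESeq2), while corrected values gave 5 higher and 3 lower. The share called was 44.4% both as counted and corrected, against 51.7% and 35.4% of all genes tested. TLE3, a Groucho-type co-repressor of TCF factors, rose (84.8 ± 6.69 CPM with exosomes and 51.2 ± 1.67 CPM in control; log2 fold change 0.65, adjusted p = 4.14e-06; corrected 0.57, adjusted p = 2.34e-06). AES, a shorter member of the same family, rose (257.0 ± 32.3 CPM with exosomes and 163.6 ± 21.2 CPM in control; 0.57, adjusted p = 0.000181; corrected 0.27, adjusted p = 0.00667). Others of the family, named after their values were seen, did not rise past the threshold. TLE1 and TLE2 were lower once corrected (-0.162, adjusted p = 0.0427, and -0.285, adjusted p = 0.00596), and TLE4 was not called either way. PYGO2, a co-activator that joins beta-catenin through BCL9, rose (82.7 ± 5.91 CPM with exosomes and 57.4 ± 1.91 CPM in control; 0.44, adjusted p = 0.000176), without passing after correction (0.16, adjusted p = 0.0778).

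Of 23 tested genes described as Wnt targets in other systems, 6 rose and 7 fell (corrected 4 and 8). The share called was 56.5%, against 51.7% of all genes tested, and 52.2% corrected, against 35.4%. VEGFA, an angiogenic growth factor, rose (140.1 ± 16.2 CPM with exosomes and 69.3 ± 5.66 CPM in control; log2 fold change 0.93, adjusted p = 5.48e-08; corrected 1.07). The claudin gene CLDN1 fell (2.43 ± 1.14 CPM with exosomes and 7.92 ± 0.601 CPM in control; -1.78, adjusted p = 6.53e-06; corrected -1.58), as did ID2, an inhibitor of helix-loop-helix factors (8.02 ± 0.713 CPM with exosomes and 15.8 ± 2.89 CPM in control; -1.06, adjusted p = 1.45e-05; corrected -1.31). MYC and CCND1, named after their values were seen as the most cited targets of the list, were called in opposite directions. MYC had 328.1 ± 27.4 CPM with exosomes and 207.9 ± 24.9 CPM in control (0.57, corrected 0.32), and CCND1 254.7 ± 10.3 CPM with exosomes and 316.9 ± 38.8 CPM in control (-0.40, corrected -0.44).

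The beta-catenin-independent branch had 22 tested genes, of which 3 rose and 12 fell (corrected 2 and 8), with a median log2 fold change of -0.28 (corrected -0.14). The share called was 68.2%, against 51.7% of all genes tested (of which 26.1% were lower), and 45.5% corrected, against 35.4% (17.2% lower). The formin gene DAAM1 fell (74.1 ± 7.24 CPM with exosomes and 117.0 ± 11.1 CPM in control; -0.74, adjusted p = 1.53e-06; corrected -0.39, adjusted p = 0.000129). Among 5 tested partners of beta-catenin at adherens junctions, 3 fell and 0 rose in edgeR's test (0 also at an unadjusted p under 0.05, and 0 by DESeq2). Their share called was 60.0% both as counted and corrected, against 51.7% and 35.4% of all genes tested. CDH1, the gene of E-cadherin, fell (20.7 ± 0.927 CPM with exosomes and 51.5 ± 2.63 CPM in control; -1.39, adjusted p = 7.89e-10; corrected -1.34, adjusted p = 3.43e-10). CTNND1, the gene of p120-catenin, had -0.32 (adjusted p = 0.00140) and did not pass after correction (-0.14, adjusted p = 0.0583). CTNNA1, the gene of alpha-catenin, had -0.21 (adjusted p = 0.0252; corrected -0.20, adjusted p = 0.0114). It missed the threshold when only library totals set the scale (adjusted p = 0.153) and without exosome library 1 or 2 or control library 1 or 2 (adjusted p = 0.0899, 0.138, 0.102 and 0.123). In the annotation, exons of WNT2B, KREMEN2, PYGO2, CTNNA1 and CCND1 overlap those of ST7L, PKMYT1, SHC1, LRRTM2 and LTO1, and exons of APC, CTNND1, WLS, FZD6, AES, VEGFA, ID2, CDH1 and again PYGO2 and CTNNA1 those of an antisense, read-through or unnamed coding gene.

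**Figure D4:**
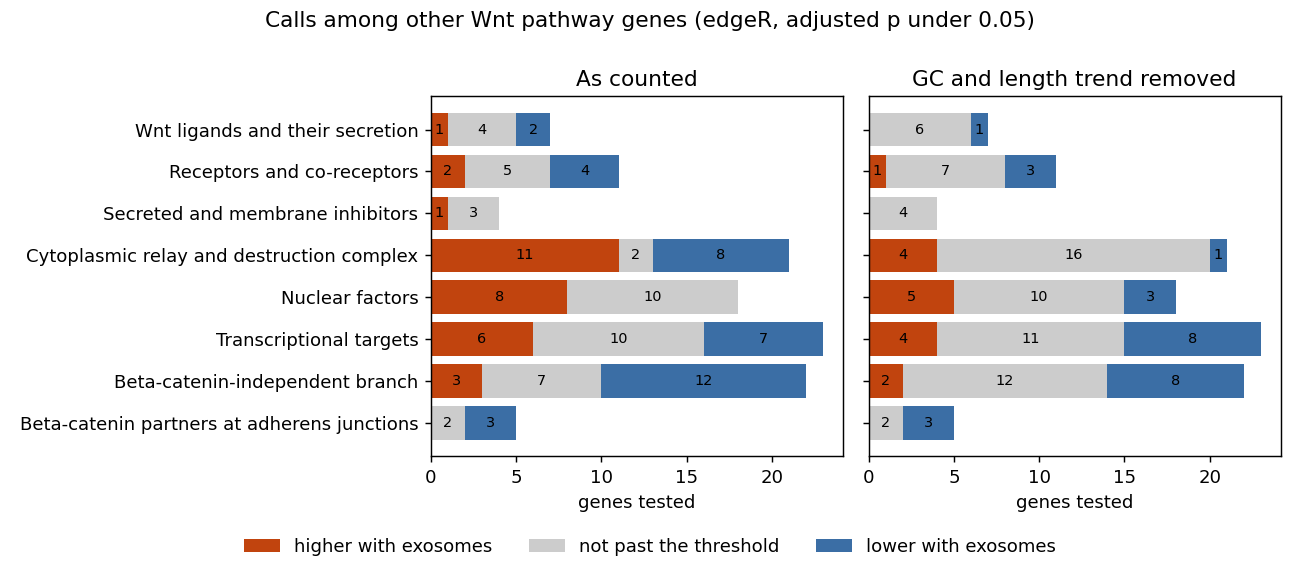
Number of tested genes of each Wnt list (horizontal axes, genes) called higher, not past the threshold or called lower with exosomes by edgeR at an adjusted p under 0.05, as counted and with the GC and length trend removed. The cytoplasmic relay list has 11 higher and 8 lower calls as counted and 4 and 1 corrected, and the beta-catenin-independent list has 12 lower calls as counted and 8 corrected.

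The genes whose pattern over the 6 libraries lay nearest to that of LBH were sought among 10443 protein-coding genes with a mean of at least 5 CPM, by the Euclidean distance between centred log2(CPM + 1) values. IGFBP5 (distance 0.266), PSG5 (0.483) and PDGFB (0.593) were among the nearest, where the median distance was 2.36. PDGFB, a platelet-derived growth factor chain, averaged 2.27 ± 0.523 CPM with exosomes and 7.92 ± 0.364 CPM in control. IGFBP5, which binds IGF ligands, averaged 4.86 ± 0.530 CPM with exosomes and 18.99 ± 2.39 CPM in control, and PSG5, a pregnancy glycoprotein whose close relatives can share reads, 2.20 ± 0.446 CPM with exosomes and 8.07 ± 1.60 CPM in control. The difference between the groups sets most of such a distance, so the genes share the size of their difference with LBH.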

How the data were processed

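Per the labels' protocols, Trizol was used for RNA extraction from 6 SK-MES-1 samples and a NEBNext Ultra kit for the libraries. The submitters' processing notes name STAR and GRCh38 (hg38); the counting program and strand setting are not stated. The deposited table holds, per the file headers, read counts and FPKM per gene, which were used here, and also a normalised signal, log2 fold changes and p-values made by the authors, which were not. Groups and replicate numbers came from the titles.

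The test was edgeR 4.0.16 run in R 4.3.3 on the counts (filterByExpr, TMM, robust quasi-likelihood fit, group as the only term), adjusted by Benjamini-Hochberg over 12449 genes, threshold 0.05. The SE was obtained by dividing the size of the log2 fold change by the root of F. CPM took no TMM factors into account. For the correction, each library's deviation from the gene's mean log2 CPM was smoothed on GC content and log2 length of the longest GENCODE 29 transcript (loess, span 0.3) and entered as an offset. Positions count from 1; the table's lie 1 base below GENCODE 29. DESeq2 1.42.0 and the other alternatives are given in the closing section. On simulated counts for this comparison (12357 genes), 17 of 12158 unchanged genes were called by edgeR, which recovered 91% of 2-fold and 82% of 1.5-fold changes. The simulated counts held no GC or length trend and far fewer changed genes than were called here. Their rate of false calls therefore cannot be carried over to the real libraries.

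The members, lists and the correction were chosen with earlier results of these data known. Named genes are the members, up to 3 genes of each list past the threshold with the smallest adjusted p and at least 1 CPM, the gene of highest FPKM among ligands, receptors and inhibitors, and genes patterned like LBH. Some named genes are not reported here.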

Additional observations from a re-analysis of the deposited data

How the results depend on the processing

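With the GC and length correction, 2147 genes of the whole table were lower (3244 without it) and 16 other Wnt pathway genes higher (31 without it), or 17 with the replicate block and the correction together. Scaling by library totals gave 3811 higher and 2495 lower genes, against 3190 and 3244, and turned WLS to a log2 fold change of 0.030 (adjusted p = 0.790). Leaving out single libraries gave 2503 to 3234 higher and 2608 to 3375 lower genes, and 23 to 31 higher and 31 to 38 lower among the other Wnt pathway genes. Over these fits and RLE factors, no filter, 1 CPM in 3 libraries, DESeq2 and the block, LBH, DKK1 and CTNNB1 stayed lower and WNT7B higher. FZD2 became negative with the correction, with and without the block. Nothing states that replicate numbers pair the samples. Deviations of same-numbered libraries correlated weakly, at 0.066, 0.103 and 0.206, but every library correlated best with its own number, so pairing is not settled. For number 1 the lead was slight, at 0.0664, against 0.0659 for exosome library 1 with control library 2 and 0.0623 for exosome library 2 with control library 1. With a replicate block, 3444 genes were higher and 3525 lower, and 33 and 39 of the other Wnt pathway genes. AXIN2 and WNT5A, at 1 to 7 reads a library, allow no statement on a difference at this depth.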

Other observations

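Within 500 kb of LBH on chromosome 2, 4 other genes had a row, chosen by position alone and outside the rule for named genes. YPEL5 had 71.7 CPM with exosomes and 96.3 CPM in control (log2 fold change -0.51, corrected -0.34, edgeR adjusted p = 6.16e-05 and 0.000735). LCLAT1 had 46.3 CPM with exosomes and 57.1 CPM in control (-0.38, adjusted p = 0.00142), without passing after correction (-0.056, adjusted p = 0.620). ALK and CAPN13 lay below 1 CPM in both groups. LBH, at -2.04, lay farther below 0 than either tested neighbour, a difference between genes that was not tested.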
